A study of Mus musculus with 10 samples.

Results

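The proteasome subunit genes were taken as the protein-coding genes of the expression tables whose symbol is Psm followed by a letter from a to g and a number, and 49 of 36586 genes met this rule. By the roles fixed for them they comprise 8 genes of the alpha ring, 4 structural and 3 catalytic genes of the beta ring, 4 immunoproteasome and thymoproteasome genes, 6 ATPases and 11 other subunits of the 19S particle, 3 chaperones of its base, 4 activators, 4 chaperones of the 20S core and 1 inhibitor. The remaining gene, Psmc3ip, has a symbol that fits the rule, but encodes a cofactor of meiotic recombination and no subunit. RNA was sequenced from the murine embryonic stem cell line JM8.N4 in 4 libraries: wild type, Rad23b-/-, and Rad23b-/- with an added hairpin against Xpc, of which there were 2 (KD1 and KD2). All 3 mutant libraries carry the Rad23b-/- genotype and share the wild-type library as their only control, and each group is 1 library. RAD23B was also mapped by ChIP-seq in wild-type D3 embryonic stem cells, with 2 RAD23B libraries and an IgG library beside each, and in Xpc-/- embryonic stem cells with 1 of each. Nothing in the labels says whether the ChIP replicates came from separate cultures, or whether the mutant lines are single clones.

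The proteasome degrades proteins tagged with ubiquitin. Its 20S core is a barrel of alpha and beta rings with the peptide-cutting sites inside, and the 19S particle caps the barrel, binds ubiquitin chains, and unfolds and feeds in the substrate; together they form the 26S proteasome. RAD23B carries a ubiquitin-like domain that docks on the 19S particle and domains that bind ubiquitin chains, so it is known as a shuttle that brings substrates to the proteasome as well as a partner of XPC in DNA repair.

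In the Rad23b-/- library Rad23b RNA was listed at 43.9 RPKM (reads per kilobase of gene, scaled to library size), against 229 in wild type, 35.8 in KD1 and 52.5 in KD2; the stretch deleted is not given in the sources used here. Xpc was listed at 8.73 RPKM in wild type and 8.34 in Rad23b-/-, and at 0.915 and 0.895 in the knockdowns, so both targets were low where the labels say. Of the 7 pluripotency markers looked at, all were at 1 RPKM or more in all 4 libraries. Their median log2 ratios to wild type, with 1 added to each RPKM, were -0.54, -0.09 and -0.27 in Rad23b-/-, KD1 and KD2. Nanog had the lowest ratio in each, at 512, 197, 243 and 209 RPKM in wild type and these 3 libraries (-1.37, -1.04 and -1.26). Tdgf1 had the highest, at 1087, 1151, 1593 and 1304 RPKM (0.08, 0.59 and 0.29). Zfp42 was also above wild type in Rad23b-/- (0.07) and Dppa5a in KD1 (0.21), and all other ratios were below wild type. The 8 fibroblast markers summed to between 1.89 and 2.66 RPKM in each library with Postn at 0, and the 5 blood markers to between 2.48 and 4.39 with Hbb-b1 and Lyz2 at 0. The 7 primitive endoderm markers summed to between 6.21 and 8.75 RPKM and the 4 neural markers listed to between 7.16 and 10.99. The 7 trophectoderm markers summed to 57.9 RPKM in wild type and 136, 118 and 90.1 in Rad23b-/-, KD1 and KD2. Krt19, on chromosome 11, was at 15.2, 78.7, 69.5 and 62.7 RPKM in the same order, and Krt8 at 21.4, 23.5, 18.8 and 10.8. In KD2 Krt7, Krt8 and Krt18 were below wild type and Krt19 and Hand1 above. The median log2 ratios of the 5 markers that reached 1 RPKM were 0.70, 0.75 and -0.21. The part of the marker lists in the results below was not tested.

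Most proteasome genes had less RNA in the mutant libraries than in wild type, by a modest amount. Of the 49 genes, 47 reached 1 RPKM in either library of each comparison, and Psmb8 and Psmb11 did not. The median over these 47 of the log2 ratio (mutant to wild-type RPKM, with 1 added to each) was -0.57 in Rad23b-/-, -0.46 in KD1 and -0.48 in KD2; on this scale the change of weakly expressed genes is understated. The same medians over all genes were -0.16, -0.14 and -0.14, a shift shared by the whole tables. In Rad23b-/- 42 of the 47 genes were below wild type (62.9% of all genes were), in KD1 44 (63.8% of all genes) and in KD2 45 (62.7%). At least 1.5-fold lower were 20 genes in Rad23b-/- (42.6% of the 47, against 16.4% of all genes), 14 in KD1 (29.8% against 12.4%) and 18 in KD2 (38.3% against 13.7%). Relative to the median of all genes these counts were 15, 12 and 12. Without Psmc3ip, which is no subunit, 19, 13 and 17 of 46 genes were at least 1.5-fold lower. At least 2-fold lower were 5 genes in Rad23b-/- (4.61% of all genes were), 3 in KD1 (3.4%) and 3 in KD2 (3.6%). On this scale only Psma8 was at least 1.5-fold higher, in each of the 3 comparisons (10.8%, 9.1% and 9.61% of all genes).

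Most proteasome RNAs are abundant, and most protein-coding genes of 50 to 500 RPKM were also lower in the mutant libraries. Genes above 500 RPKM were not summarised as a set. Over the 4 libraries 37 of the 49 genes lay between 50 and 500 RPKM, where 1913 protein-coding genes had medians of -0.37, -0.28 and -0.32 in Rad23b-/-, KD1 and KD2. In that range 86.3%, 81.5% and 83.6% of genes were below wild type, and 24.7%, 15.0% and 20.2% at least 1.5-fold lower. Relative to the median of that range, a setting chosen after seeing the data, 6, 4 and 6 of the 47 proteasome genes were at least 1.5-fold lower and their medians were -0.19, -0.18 and -0.16. The part of the shared shift in their values was not tested. There is no replicate check on any of these differences, and by the smallest steps between low values the mutant libraries were 1.29, 1.23 and 1.26 times as deep as wild type. As the libraries are bulk RNA, fewer cells of a type and less RNA per cell cannot be told apart.

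**Figure D1:**
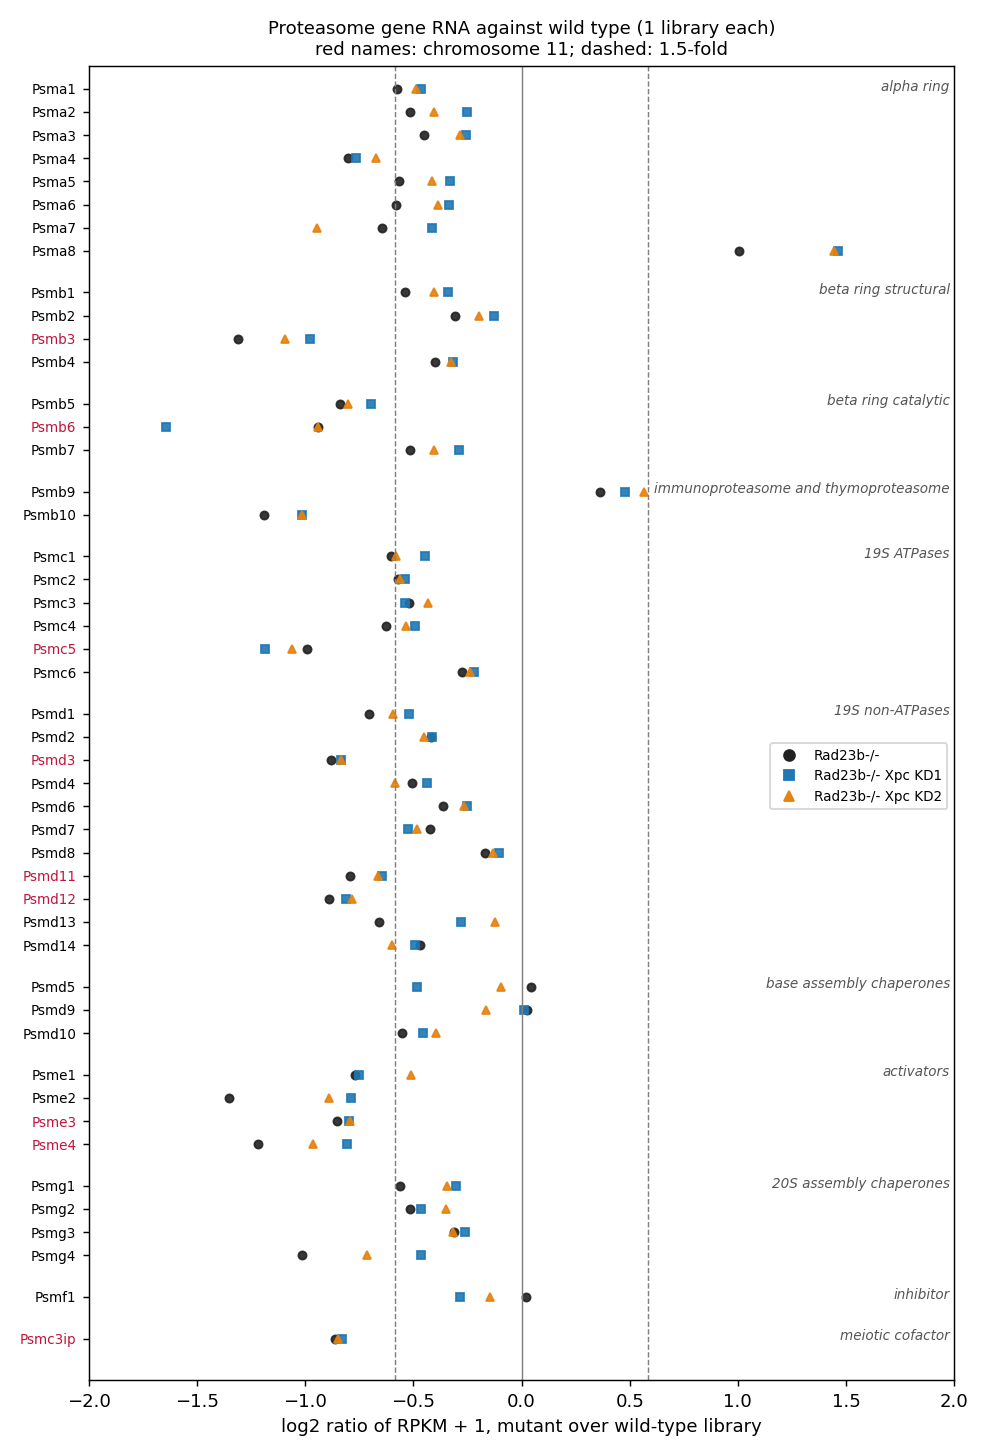
The 47 genes at 1 RPKM or more are listed by role (rows), with the log2 ratio of RPKM + 1 over wild type on the horizontal axis and 1 point per mutant library; dashed lines mark 1.5-fold. Nearly all points lie left of 0, the chromosome 11 genes (red names) lie left of the 1.5-fold line in each library, and Psma8 stands alone on the far right.

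The alpha ring forms the gated entrance to the 20S core, and 7 of its 8 genes were below wild type in each mutant library. Their medians, Psma8 included, were -0.57, -0.33 and -0.41. Psma4 had the lowest ratio in Rad23b-/- (chr9:54798072-54805837, mm9, like all positions below unless another build is named), with 487 RPKM in wild type, 279 in Rad23b-/-, 279 in KD1 and 300 in KD2 (log2 ratios -0.80, -0.77 and -0.67). Psma7 was at 296, 189, 216 and 151 RPKM in the same order, with its lowest value in KD2 (-0.64, -0.42 and -0.94). The remaining standard genes, Psma1, Psma2, Psma3, Psma5 and Psma6, had ratios between -0.58 and -0.25.

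Psma8 encodes the alpha subunit of the spermatoproteasome, which replaces the Psma7 product in the testis. It went the opposite way from the standard ring, at 5.37 RPKM in wild type, 11.8 in Rad23b-/-, 16.2 in KD1 and 16.1 in KD2. All 3 mutant values lie above wild type, by 1.01, 1.46 and 1.44 on the log2 scale. Even so, Psma8 stayed far below Psma7 in RPKM, a scale that is per length, in every library. In the authors' deposited table its p-value was 0.157 for Rad23b-/-.

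The structural beta genes were led by Psmb3, on chromosome 11 (chr11:97564712-97574814). Psmb3 was listed at 361 RPKM in wild type, 145 in Rad23b-/-, 178 in KD1 and 166 in KD2. These are 40.1%, 50.6% and 46.7% of wild type, or log2 ratios of -1.31, -0.98 and -1.09. In the authors' deposited table Psmb3 had a p-value of 0.011 in Rad23b-/-, and it was the only proteasome gene under 0.05 there (2.77% of all genes were). In KD1 the authors' p-value was under 0.05 for 4 of the 49 (Psma8, Psmb3, Psmb6 and Psmc5; 2.76% of all genes) and in KD2 for 3 (Psma8, Psmb3 and Psmc5; 2.74%). Psmb2 had the highest ratio of this class in Rad23b-/-, at 186, 150, 166 and 160 RPKM (-0.31, -0.13 and -0.20). Psmb1 and Psmb4 lay between these 2 genes.

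The promoter of Psmb3 is printed because this gene had the lowest ratio of the 26S subunits in Rad23b-/- and a RAD23B region over its start. Promoter sequences here and below run 5′ to 3′ on the gene's strand, from 250 bases before to 50 bases after the start, and come from RefSeq on GRCm38.p6 (here chr11:97703184-97703483, plus strand). Capitals mark 2 CCAAT boxes, the motif that NF-Y binds.
Psmb3 promoter: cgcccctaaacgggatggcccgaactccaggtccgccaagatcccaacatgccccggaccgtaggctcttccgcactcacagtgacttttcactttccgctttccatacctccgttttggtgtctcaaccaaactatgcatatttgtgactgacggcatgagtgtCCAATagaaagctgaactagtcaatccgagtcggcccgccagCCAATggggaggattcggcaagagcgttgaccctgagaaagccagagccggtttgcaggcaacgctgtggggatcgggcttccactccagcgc

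The 3 standard catalytic subunits were all below wild type, and unequally so. Psmb5, which encodes the chymotrypsin-like subunit, had the highest RPKM of all 49 genes, 778 in wild type, and 433 in Rad23b-/-, 467 in KD1 and 438 in KD2 (-0.84, -0.70 and -0.80). Psmb6, the caspase-like subunit (chr11:70338868-70341360), was at 410, 213, 127 and 210 RPKM. KD1 stands apart from the other mutant libraries at Psmb6, with log2 ratios of -0.94 in Rad23b-/-, -1.64 in KD1 and -0.94 in KD2. Psmb7, the trypsin-like subunit, was at 355, 249, 283 and 263 RPKM (-0.51, -0.29 and -0.41), on coordinates that the tables give to 4 genes.

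The promoters of Psmb6 and Psmb5 are printed to set 2 catalytic subunits side by side, 1 with and 1 without a RAD23B region of both replicates. Capitals mark the core of the antioxidant response element, TGACNNNGC, which NRF1 and NRF2 bind with small MAF proteins and through which NRF1 is known to raise proteasome genes, and in Psmb6 also a GC box (GGGCGG, here on the opposite strand as CCGCCC). The Psmb6 stretch is chr11:70525107-70525406 on the plus strand and the Psmb5 stretch chr14:54617946-54618245 on the minus strand (both GRCm38.p6).
Psmb6 promoter: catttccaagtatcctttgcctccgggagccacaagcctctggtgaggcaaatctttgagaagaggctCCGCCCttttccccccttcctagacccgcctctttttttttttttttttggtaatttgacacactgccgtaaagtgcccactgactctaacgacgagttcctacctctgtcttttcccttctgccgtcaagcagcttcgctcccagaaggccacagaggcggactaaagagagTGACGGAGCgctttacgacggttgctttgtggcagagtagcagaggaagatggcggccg
Psmb5 promoter: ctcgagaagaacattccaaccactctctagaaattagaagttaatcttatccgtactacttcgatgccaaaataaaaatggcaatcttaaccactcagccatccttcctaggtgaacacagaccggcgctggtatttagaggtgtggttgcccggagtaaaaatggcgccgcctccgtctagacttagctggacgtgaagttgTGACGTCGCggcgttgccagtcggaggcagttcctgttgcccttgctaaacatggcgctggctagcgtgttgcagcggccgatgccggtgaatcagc

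The interferon-induced counterparts were far scarcer than the standard catalytic subunits. Psmb8, the counterpart of Psmb5, was at 0.812, 0.482, 0.492 and 0.690 RPKM in wild type, Rad23b-/-, KD1 and KD2, which is 0.104% to 0.158% of the Psmb5 level in the same library. Psmb9, the counterpart of Psmb6, was at 2.20, 3.12, 3.39 and 3.69 RPKM. It was thus higher in each mutant library, by 0.36, 0.48 and 0.57 on the log2 scale of RPKM + 1, short of 1.5-fold. Without the added 1, Psmb9 was 1.42-, 1.58- and 1.70-fold higher, so that it passed 1.5-fold in both knockdowns. Psmb10, the counterpart of Psmb7, went the other way at 9.30, 3.51, 3.98 and 4.02 RPKM, with log2 ratios of -1.19, -1.02 and -1.01. As a share of its standard partner, Psmb9 made up 0.538% in wild type and 1.46%, 2.67% and 1.76% in the mutants, while Psmb10 made up 2.62% in wild type and 1.41%, 1.41% and 1.53%. Both genes of a pair enter these shares, and Psmb6 itself was at 410, 213, 127 and 210 RPKM in the same order. In the authors' deposited table the p-values of Psmb9 were 0.883, 0.808 and 0.784. Psmb11, the thymus-specific gene, did not exceed 0.0496 RPKM. Psmb9 shares its listed coordinates with Tap1 and Psmb8 with Tap2, though the values listed for each gene differ, and Psmb10 lies on coordinates of 4 genes.

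**Figure D2:**
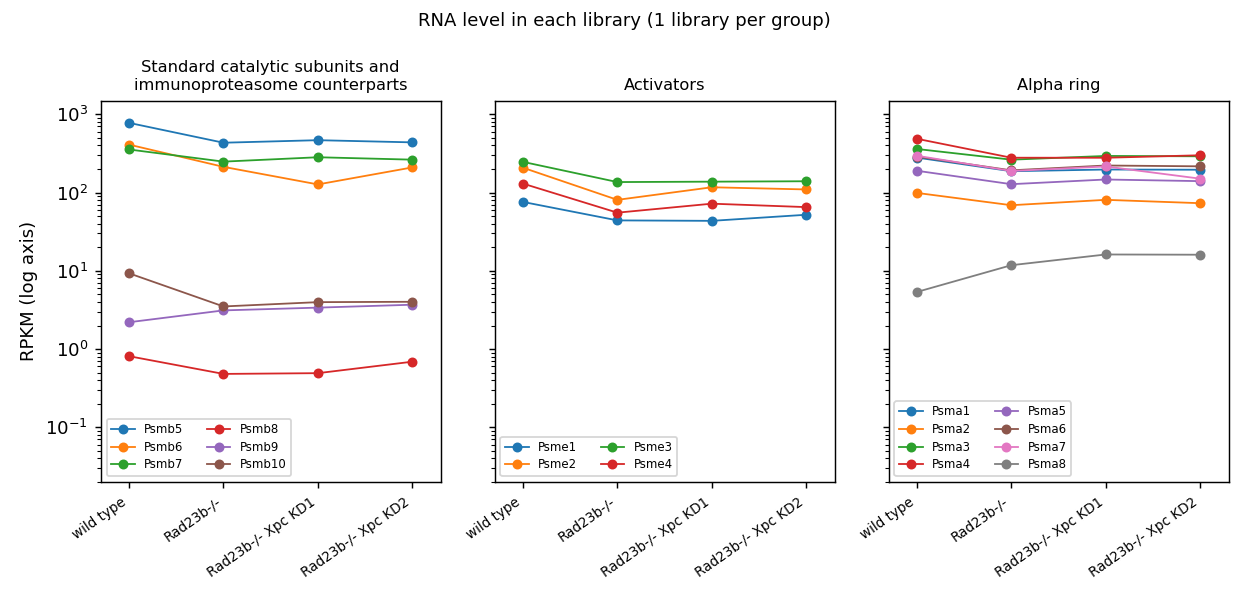
RPKM on a log axis in the 4 RNA libraries for the catalytic subunits with their immunoproteasome counterparts (left), the activators (middle) and the alpha ring (right), 1 library per point, with lines only to follow a gene. Psmb6 dips to 127 RPKM in KD1, Psmb9 and Psma8 are higher in all mutant libraries, and the other genes are highest in wild type.

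The 19S particle followed the core. Its 6 ATPases, which unfold the substrate, were below wild type in all mutant libraries, with medians of -0.59, -0.51 and -0.55. Psmc5, on chromosome 11 (chr11:106117467-106124434), had the lowest ratios, at 219 RPKM in wild type, 110 in Rad23b-/-, 93.1 in KD1 and 103 in KD2 (-0.99, -1.19 and -1.06). Psmc6 had the highest, at 146, 121, 122 and 122 RPKM (-0.27, -0.22 and -0.24). Psmc1, Psmc2, Psmc3 and Psmc4 lay within the narrow band from -0.63 to -0.43. Across the ATPases the subunit on chromosome 11 was therefore the one that stood apart.

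The 11 other subunits of the 19S particle, among them lid subunits, docking subunits and a ubiquitin receptor, were also all below wild type. Their medians were -0.51, -0.49 and -0.59. Psmd12, a scaffold of the lid (chr11:107340797-107365676), was at 193, 104, 107 and 110 RPKM (-0.89, -0.81 and -0.79). Psmd3, another lid subunit (chr11:98543867-98557293), was at 188, 102, 102 and 103 RPKM (-0.88, -0.83 and -0.83). Psmd11, which clamps lid and core together (chr11:80242116-80286750), was at 235, 135, 146 and 145 RPKM (-0.79, -0.65 and -0.66). In these 3 genes the mutant libraries differed little from each other and all lay far below wild type. At the other end, the lid subunit Psmd8 was at 131, 116, 119 and 118 RPKM (-0.17, -0.10 and -0.13). The docking subunits Psmd1 and Psmd2 had ratios of -0.70 and -0.42 in Rad23b-/-, the ubiquitin receptor Psmd4 -0.51 and the deubiquitinase Psmd14 -0.47. Psmd13 differed most between mutants among these 11, at 219, 138, 176 and 198 RPKM (-0.66, -0.28 and -0.12). In total 31 of 31 standard 26S subunits were below wild type in each comparison, and 13, 8 and 12 of them at least 1.5-fold lower in Rad23b-/-, KD1 and KD2. Of all protein-coding genes of 50 to 500 RPKM, 86.3%, 81.5% and 83.6% were below wild type and 24.7%, 15.0% and 20.2% at least 1.5-fold lower, and 6 of the 31 subunits lie on chromosome 11.

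The activators, which open the core without ubiquitin or ATP, had the lowest median of any class in Rad23b-/-. Their medians were -1.04, -0.79 and -0.84. Psme2, the beta subunit of the PA28 ring, had the lowest ratio of RPKM + 1 of all 47 genes in Rad23b-/-, at 208 RPKM in wild type, 80.7 in Rad23b-/-, 117 in KD1 and 110 in KD2 (-1.35, -0.79 and -0.89). Without the added 1, Psmb10 was lower still, at 37.7% of wild type against 38.8% for Psme2. Its partner Psme1, listed within a few kilobases of it on chromosome 14, was at 75.9, 44.1, 43.5 and 52.1 RPKM (-0.77, -0.75 and -0.51). Psme3, the nuclear PA28 (chr11:101177526-101184851), was at 247, 136, 138 and 140 RPKM (-0.85, -0.80 and -0.79). Psme4, the nuclear activator PA200 (chr11:30671725-30780361), was at 130, 55.4, 72.1 and 65.2 RPKM (-1.22, -0.81 and -0.96). All 4 activators were at least 1.5-fold lower in Rad23b-/- and KD1, and 3 in KD2, where Psme1 did not reach that fold. Beside these counts, 71.8%, 65.2% and 70.2% of chromosome 11 genes of 50 to 500 RPKM, where Psme3 and Psme4 lie, and 19.8%, 9.7% and 15.0% of such genes on other chromosomes were at least 1.5-fold lower.

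The Psme4 promoter (chr11:30771525-30771824, GRCm38.p6, plus strand) is printed because it holds 3 of the motifs searched close to the start. Capitals mark a GC box on the opposite strand that overlaps an ETS motif (CCGGAAGT), and nearer the start an antioxidant response core on the opposite strand.
Psme4 promoter: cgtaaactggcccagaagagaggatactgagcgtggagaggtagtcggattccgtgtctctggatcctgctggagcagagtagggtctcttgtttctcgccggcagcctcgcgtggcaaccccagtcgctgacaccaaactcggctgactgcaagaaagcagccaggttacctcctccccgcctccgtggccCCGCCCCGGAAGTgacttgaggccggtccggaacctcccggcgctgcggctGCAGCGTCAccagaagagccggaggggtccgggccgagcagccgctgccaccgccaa

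The assembly chaperones and the inhibitor were less abundant and more mixed. Psmg4, which helps to close the alpha ring, was at 35.3 RPKM in wild type, 17.0 in Rad23b-/-, 24.6 in KD1 and 20.8 in KD2 (-1.01, -0.47 and -0.71). Its partner Psmg3 was at 18.99, 15.1, 15.3 and 14.8 RPKM (-0.31, -0.26 and -0.32). Psmg1 and Psmg2, which form the other chaperone pair of the core, had ratios between -0.56 and -0.30. Of the base chaperones, Psmd10 (gankyrin) was at 22.6, 15.1, 15.8 and 16.7 RPKM (-0.55, -0.46 and -0.40). Psmd5 was at 80.2 RPKM in wild type and 82.7 in Rad23b-/-, and at 55.6 and 73.8 in KD1 and KD2 (0.04, -0.48 and -0.09). Psmd9, on coordinates shared by 8 genes, was at 8.62, 8.80, 8.48 and 7.46 RPKM (0.03, 0.01 and -0.16). Psmf1, the inhibitor PI31, was at 30.3, 30.8, 24.1 and 26.8 RPKM (0.02, -0.28 and -0.15). These last 3 genes thus lay on both sides of wild type. Psmc3ip, no subunit, was at 40.4, 21.7, 21.7 and 21.6 RPKM (-0.86, -0.83 and -0.85).

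Chromosome 11 carried 9 of the 49 genes, among them 6 subunits of the 26S proteasome, and all of them were at least 1.5-fold lower in each comparison. Their medians were -0.89, -0.83 and -0.85, against -0.52, -0.42 and -0.41 for the 38 expressed genes on other chromosomes. On the other chromosomes 11 of 38 were at least 1.5-fold lower in Rad23b-/-, 5 in KD1 and 9 in KD2. Chromosome 11 as a whole was also lower. Its protein-coding genes had medians of -0.52, -0.53 and -0.50, and 43.6%, 42.7% and 43.2% of them were at least 1.5-fold lower, against 12.9%, 8.83% and 10.2% of those on other chromosomes. The medians of the other 19 chromosomes ran from -0.23 to -0.04 in Rad23b-/-, from -0.21 to -0.07 in KD1 and from -0.19 to -0.04 in KD2.

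The lower level held along the whole of chromosome 11, since 7 of 7 windows of 20 Mb had medians between -0.66 and -0.40. Among chromosome 11 genes of 50 to 500 RPKM, 71.8%, 65.2% and 70.2% were at least 1.5-fold lower, with medians of -0.77, -0.71 and -0.71. The medians of the 9 genes that met the rule were thus a little below those of chromosome 11 genes of that range. The 9 include Psmc3ip, which is no subunit and lay under 50 RPKM in each library. The 6 subunits of the 26S proteasome among them had medians of -0.92, -0.91 and -0.89. Psmb3, Psme4, Psmc5 and Psmb6 were the lowest of the 9 in Rad23b-/-. On other chromosomes genes of that range had medians of -0.34, -0.25 and -0.29, with 19.8%, 9.7% and 15.0% at least 1.5-fold lower. What the chromosome and the genotype each contribute cannot be told apart in these libraries.

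**Figure D3:**
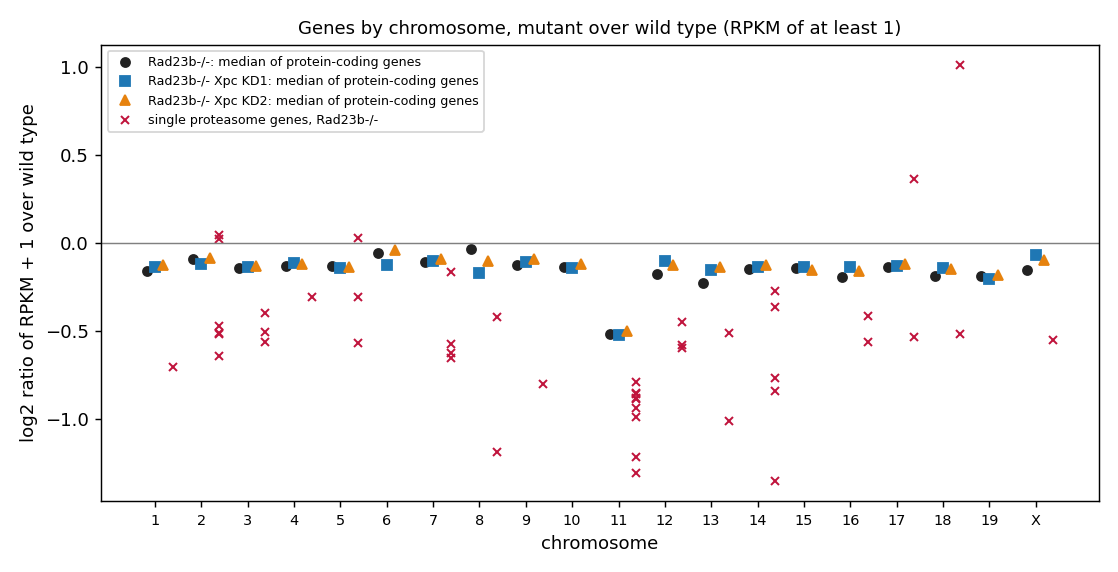
Median log2 ratio of RPKM + 1 over wild type of protein-coding genes on each chromosome (circles, squares and triangles for the 3 mutant libraries), with single proteasome genes in Rad23b-/- as crosses. Chromosome 11 lies between -0.53 and -0.50 in the 3 libraries while the others lie at -0.23 or higher, and the chromosome 11 proteasome genes lie between -1.31 and -0.79.

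In the 2 libraries with an Xpc hairpin, proteasome RNA was near the Rad23b-/- level or slightly above it. The median difference on the log2 scale from Rad23b-/- was 0.11 in KD1 and 0.10 in KD2. Over protein-coding genes of 50 to 500 RPKM it was 0.10 and 0.05, and over all genes 0.03 and 0.02. In KD1 39 of 47 genes were above Rad23b-/- (55.1% of all genes were, and 72.2% of protein-coding genes of 50 to 500 RPKM), and in KD2 37 of 47 (55.9% and 64.6%). These counts share the Rad23b-/- library. Only Psmb6 in KD1 was 1.5-fold apart from Rad23b-/-, with a difference of -0.70, and no gene was in KD2. At least 1.5-fold below Rad23b-/- were 2.58% of all genes in KD1 and 2.32% in KD2, and as far above it 2.87% and 2.11%. Psme2 was the gene most above Rad23b-/- in KD1 (0.57) and Psmd13 in KD2 (0.54). The knockdowns themselves differed by a median of -0.03 with an SD of 0.17 over the 47 genes, and again only Psmb6 was 1.5-fold apart between them (4.84% of all genes).

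Genes that work with the proteasome were looked at from lists outside the rule, with ratios and folds on the RPKM + 1 scale. Of 8 partners 7 were listed. Adrm1, a ubiquitin receptor of the 19S particle, was at 89.4, 67.1, 59.6 and 59.2 RPKM in wild type, Rad23b-/-, KD1 and KD2, and Pomp, the maturation factor of the core, at 160, 121, 151 and 128. The ubiquitin ligase Ube3c was at 35.1, 21.1, 26.2 and 21.7 RPKM and was the only partner at least 1.5-fold lower, in Rad23b-/- and KD2. In these 2 comparisons 16.4% and 13.7% of all genes were at least 1.5-fold lower. Of the p97 segregase and its cofactors, which pull ubiquitylated proteins from complexes, 3 of 5 were at least 1.5-fold lower in each comparison: Vcp itself at 262, 161, 167 and 159 RPKM, Nsfl1c at 110, 67.3, 70.1 and 71.7, and Nploc4, on chromosome 11, at 53.8, 34.4, 26.9 and 22.3. Medians of this list were -0.63, -0.61 and -0.59, beside -0.16, -0.14 and -0.14 over all genes and -0.37, -0.28 and -0.32 over protein-coding genes of 50 to 500 RPKM, of which 24.7%, 15.0% and 20.2% were at least 1.5-fold lower.

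None of the 5 genes around NRF1, the transcription factor that raises proteasome genes when degradation fails, was 1.5-fold apart on the RPKM + 1 scale. Keap1, which encodes the adaptor that holds NRF2 in check, came nearest among those that were lower, at 9.05 RPKM in wild type and 5.78 in Rad23b-/- (-0.57). Ngly1 was higher in each mutant library, at 5.02, 7.29, 7.48 and 7.07 RPKM (0.46, 0.53 and 0.44). At such low levels the added 1 understates the change of Keap1 and Ngly1. Without it, Keap1 passed 1.5-fold lower in Rad23b-/- and Ngly1 passed 1.5-fold higher in KD1. Nfe2l1, which encodes NRF1 and lies on chromosome 11, was at 94.9, 68.8, 64.8 and 65.0 RPKM (-0.46, -0.51 and -0.51). Ddi2, the protease that activates NRF1, was at 32.1, 32.9, 29.6 and 28.8 RPKM. Of 5 ubiquitin genes only Rps27a, on chromosome 11, passed 1.5-fold, in Rad23b-/-, at 1451, 869, 1013 and 953 RPKM. Among 7 interferon and antigen-processing genes Tap1, at 2.45, 5.63, 4.72 and 5.17 RPKM, and Tap2, at 0.741, 3.02, 2.04 and 3.23, were at least 1.5-fold higher in each comparison. Tap2 reached 1 RPKM only in the mutant libraries. Beside the counts of these lists, 10.8%, 9.1% and 9.61% of all genes were at least 1.5-fold higher. At least 1.5-fold lower were 16.4%, 12.4% and 13.7% of all genes. Tap1 and Tap2 encode the peptide transporter and are the neighbours with which Psmb9 and Psmb8 share coordinates. Tapbp was at 28.1, 14.9, 19.5 and 16.8 RPKM and at least 1.5-fold lower in Rad23b-/- and KD2.

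RAD23B regions lay at most proteasome genes in wild-type D3 cells, as they did at most expressed genes. The authors called regions in each RAD23B library against IgG, and a region was kept when it overlapped one of the other replicate by at least 1 bp and lay in or within 5 kb of the gene. Of the 49 genes 44 had such a region, and 42 of the 47 at 1 RPKM or more in wild type, where 88.9% of expressed protein-coding genes and 92.2% of those of 50 to 500 RPKM had one. With an authors' fold of at least 2 asked for in both replicates, 18 of the 49 were left. The fold column of replicate 2 is headed with replicate 1 library names, so every replicate 2 fold here carries that doubt. Of the 47 expressed in wild type 17 were, beside 46.2% of expressed protein-coding genes and 46.8% of those of 50 to 500 RPKM. The 9 genes on chromosome 11 all had a region. Psmb4, Psmb5, Psmd14 and Psmg1 had a region in replicate 1 only, and Psmd10, on the X chromosome, had none in either. The region near Psmb5 (chr14:55228821-55229117) held 68 RAD23B and 30 IgG reads in replicate 1, beyond the end of the gene.

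Over the listed start itself a region of both replicates was found for 22 of the 30 genes with coordinates of their own, beside 68.6% of such expressed protein-coding genes and 78.7% of those of 50 to 500 RPKM. The 22 regions were shallow. Their median authors' fold of RAD23B over IgG was 1.64 in replicate 1 (1.24 to 2.15) and 1.65 in replicate 2 (1.34 to 2.12), and Psmd6 alone reached 2 in both. For 4965 expressed protein-coding genes on coordinates of their own, the strongest region over the start had a median fold of 1.78 in replicate 1. Over all 38822 regions of both replicates the median fold was 1.95 in replicate 1 and 2.12 in replicate 2. At Psmb6 the region over the start (chr11:70338578-70339115) held 159 RAD23B and 75 IgG reads in replicate 1, with folds of 2.01 and 1.43 in the replicates. At Psmb3 the region over the start (chr11:97564231-97565074) held 268 and 180 reads, with folds of 1.42 and 1.89, and a stronger one lay upstream (chr11:97559872-97560756; 365 and 152 reads; folds 2.28 and 2.49). At Psme4 the start region (chr11:30671371-30671965) held 182 and 108 reads, with folds of 1.60 and 1.501. Psmb7 had no region over its start and 4 within its shared coordinates, the strongest by replicate 1 with folds of 2.76 and 2.85 in the replicates.

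By replicate 1 the highest fold near any proteasome gene was at the Psmd9 locus, which 8 genes share (chr5:123587488-123588948; folds 4.27 and 4.02 in the replicates). By replicate 2 it was at the Psmd1 locus, which 4 genes share (chr1:88084318-88084903; folds 3.36 and 4.93). Both lie far inside those long coordinates, so which gene they belong to cannot be told apart. Psmb8 and Psmb9 share 1 region between them (chr17:34329768-34330236; 118 and 46 reads; folds 2.42 and 2.04). In the Xpc-/- list, which holds 828 regions, 1 lay near a proteasome gene, over the start of Psmg3 (chr5:140302722-140303060). That list is short beside the 38822 regions of both wild-type replicates, so its count is not comparable with the 44 genes in wild type. The share of all genes near its regions is not given here. The headings of the Xpc-/- list may be exchanged between RAD23B and IgG, so the Psmg3 region is given as a position only. RAD23B was mapped in D3 cells and RNA in JM8.N4 cells, and no RAD23B map of the JM8.N4 line was analysed here.

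**Figure D4:**
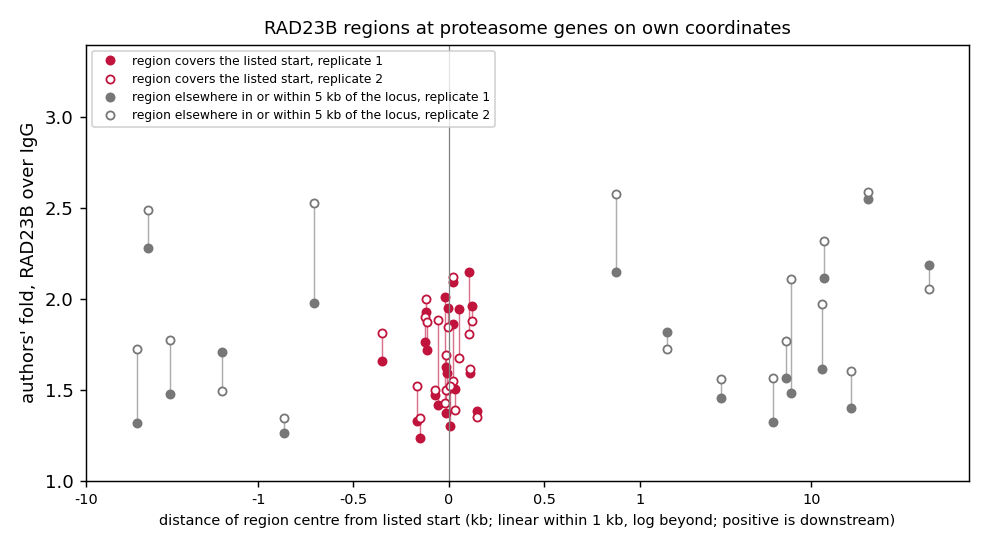
RAD23B regions of both wild-type replicates at proteasome genes with coordinates of their own, by distance of the region's centre from the listed start in kb (linear within 1 kb, logarithmic beyond) and the authors' fold over IgG; filled and open points joined by a line are replicates 1 and 2 of 1 region. Regions over the start (red) cluster at 0 with folds between 1.24 and 2.15, while those elsewhere (grey) reach 2.59.

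Promoter motifs were counted on both strands in the RefSeq promoters, which gave 44 entries for 41 of the 49 genes. CCGGAAGT, the ETS motif, was in 22.7% of these entries (9 genes: Psma6, Psmc1, Psmc2, Psmd6, Psmd12, Psmd13, Psme3, Psme4 and Psmg3), in 3.89% of all 32851 promoters and in 8.16% of those of genes expressed here. TGACNNNGC was in 13.6% of the entries (Psmb5, Psmb6, Psmc6, Psmd9, Psmd12 and Psme4), beside 12.4% of all promoters and 14.5% of expressed ones. CCAAT was in 34.1% (37.4% and 38.5%) and the GC box GGGCGG in 54.5% (35.7% and 64.7%). The octamer ATGCAAAT, which OCT4 binds, was in Psmd13 alone (2.27%, beside 1.74% and 1.32%). Psmb3, with the lowest ratio of the 26S subunits in Rad23b-/-, held neither the ETS motif nor the antioxidant core in this window. A match is a run of letters and was not tested as a binding site.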

How the data were processed

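The 49 genes, the gene lists and the tests were chosen with earlier results of these data known. The submitters' processing notes name TopHat2 2.0.6, Cufflinks 2.0.2, Cuffdiff and mm9 for the 3 expression tables, each of which sets 1 mutant library of poly-A RNA beside wild type. The deposited RPKM values were scaled separately in each table (wild type in the Rad23b-/- table was 1.03 times that in the KD1 table and 1.02 times that in the KD2 table), so each ratio was taken within its table, and wild-type levels are printed from the Rad23b-/- table. A deposited RPKM of exactly 1 was read as 0, because the columns hold no 0. The authors' p-value has no adjustment stated and rests on no replicates. Relative depth of the RNA libraries was read from the most common wild-type to mutant ratio of genes under 0.05 RPKM; their read totals are unknown, as is whether reads were counted by strand, and 19 of the 49 genes share listed coordinates with others. Lines without a gene name, 72 of the 36658 lines and 0.00144% of the wild-type RPKM, were dropped.

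Change was the log2 ratio of RPKM + 1 among genes of at least 1 RPKM in either library. With 1 library per group no test was run. RAD23B regions are the authors' lists in mm9, made with Partek per the submitters' processing notes: the deposited counts of reads, the RPM height and the fold (a scaled ratio over IgG) are the authors'. The lists of the other replicate and of Xpc-/- cells carry headings of other libraries. Only positions, RPM and fold were used from replicate 2, and positions and RPM from Xpc-/-. The fold column of replicate 2 is itself headed with the replicate 1 libraries, though its values differ from those of replicate 1. It was taken as the fold of replicate 2, which its heading does not settle. Read numbers are printed from replicate 1 only. The ChIP replicates may be technical.

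Genes given with all 4 values were the chromosome 11 genes, the catalytic subunits and their counterparts, the activators, the genes of lowest and highest ratio in Rad23b-/- of each other class, list genes at least 1.5-fold apart, and Adrm1, Pomp, Nfe2l1 and Ddi2; Psma7, Psmd9 and Psmd13 were added after their values were seen. Alternatives were other pseudocounts, filters, centrings, windows and overlaps. Scripts were tested on simulated data. Python 3.11.15, numpy 2.4.6, pandas 2.3.3 and matplotlib 3.10.9 were used.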

Additional observations from a re-analysis of the deposited data

How the results depend on the processing

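The medians of proteasome genes stayed below 0 under every alternative run. Centred on protein-coding genes of 50 to 500 RPKM, a setting chosen after seeing the data, the medians were -0.19, -0.18 and -0.16 in Rad23b-/-, KD1 and KD2, and 6, 4 and 6 genes were at least 1.5-fold lower. With each gene centred on its own chromosome, also chosen after seeing the data, the medians were -0.38, -0.29 and -0.30, and the counts 8, 6 and 5. Without chromosome 11 the counts were 11, 5 and 9, and with only genes on coordinates of their own 10, 6 and 9, in both cases from fewer genes. Centred on the median of all genes, the medians were -0.41, -0.32 and -0.34, against -0.57, -0.46 and -0.48 as reported. Other pseudocounts, filters and centring on all genes moved each median by less than 0.17 and left each count within 1.5 times. The 0.17 is the SD over genes of the difference between the knockdowns, a scatter over genes and no error of a median. Of 49 genes 18 had a RAD23B region at an authors' fold of at least 2 in both replicates; of the 30 on their own coordinates 26 had a region, and with 1 replicate left out the count was between 44 and 48. No paired analysis was possible because each RNA group is 1 library and the RAD23B counts come from no test.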
